A study of Mus musculus with 3 samples.

Results

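A set of 9 ligand and receptor genes of 4 blood cell growth factor axes, with Csf2 of the related GM-CSF axis among them, was examined in dendritic cells grown from mouse marrow. They are the ligand genes Csf1, Csf2, Csf3, Flt3l and Kitl and the receptor genes Csf1r, Csf3r, Flt3 and Kit. The 9 genes were chosen by name from 19938 genes that had a probe set naming 1 gene in the platform annotation. Each of the 9 had exactly 1 such probe set, so no choice between probe sets was needed. Levels were measured on 3 Affymetrix arrays that form 1 group with no contrast. That group, BMDC, is marrow of the inbred strain C57BL/6J cultured for 9 days with murine GM-CSF (20 ng/ml) and murine IL-4 (20 ng/ml). Every sample had both cytokines, and the labels name no M-CSF, G-CSF, Flt3 ligand or stem cell factor. Whether the replicates are separate mice or separate cultures is not stated, so an SD here measures the spread over 3 samples, possibly a technical one. Of the markers of the labelled cell type, Itgax (11.91, 11.92 and 11.91 log2 units) and H2-Ab1 (12.31, 12.36 and 12.42) were high. Of 16 markers of conventional dendritic cells, 10 (62.5%) passed the detection limit given below. That share is near the 60.5% of all genes. The same 10 passed the stricter limit given below, against 46.2% of all genes. Neither count alone identifies the cells. Xcr1, Cd209a, Btla and Dpp4 were among the 6 that passed neither limit.

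A secreted or membrane-bound ligand in these axes binds a receptor on the target cell and starts a signal for survival, growth or maturation. M-CSF, the product of Csf1, acts through Csf1r and maintains monocytes and macrophages. G-CSF, made from Csf3, acts through Csf3r and drives the output of neutrophils. Flt3 ligand, made from Flt3l, acts through Flt3 and drives the formation of dendritic cells from marrow progenitors. Stem cell factor, made from Kitl, acts through Kit on early progenitors and mast cells. Csf1r, Flt3 and Kit belong to the class III receptor tyrosine kinases, whereas Csf3r has no kinase of its own and works through JAK kinases. Csf2 encodes GM-CSF, the factor that was also added to these cultures as protein. The array reads Csf2 transcript of the cells, not the added protein.

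A gene was called detected where all 3 arrays gave a level over a limit, the 95th percentile of 1210 probe sets for odorant and pheromone receptor genes on the same array. These limits were 5.54, 5.54 and 5.55 log2 units. Of 48 measured genes of other tissues that marrow cells are not known to use (silent tissue genes), 13 passed this limit too, or 27.1%, so a call near it is weak. A stricter limit, the 99th percentile of the same probe sets, lay at 6.28, 6.24 and 6.33 log2 units, and 2 of the 48 silent tissue genes passed it. Levels are log2 units in replicates 1, 2 and 3, in that order. Probe sets differ in how strongly they bind, so a call is a rough statement of detection, and levels of different genes are not ranked here. In these mixed cultures, fewer cells of a type and less RNA per cell cannot be told apart.

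Promoter sequences are shown for 2 ligand genes that passed both limits, Csf1 and Kitl, and for the 2 receptor genes that passed neither, Kit and Flt3. Each window runs from 250 bases before to 50 bases after the gene's start in RefSeq (GRCm38.p6), written 5′ to 3′ on the gene's own strand. The 4 motifs searched on both strands stand in capitals: the TATA box TATAAA, the core GAGGAA bound by PU.1, the GC box GGGCGG and the E-box CACGTG.
Csf1, chr3:107760420-107760719, minus strand: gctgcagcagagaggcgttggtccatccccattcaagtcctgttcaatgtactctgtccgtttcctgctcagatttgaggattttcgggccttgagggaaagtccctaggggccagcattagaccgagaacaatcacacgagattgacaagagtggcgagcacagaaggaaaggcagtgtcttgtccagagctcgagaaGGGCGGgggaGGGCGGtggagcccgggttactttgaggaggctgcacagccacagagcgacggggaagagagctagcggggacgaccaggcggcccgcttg
Kitl, chr10:100015571-100015870, plus strand: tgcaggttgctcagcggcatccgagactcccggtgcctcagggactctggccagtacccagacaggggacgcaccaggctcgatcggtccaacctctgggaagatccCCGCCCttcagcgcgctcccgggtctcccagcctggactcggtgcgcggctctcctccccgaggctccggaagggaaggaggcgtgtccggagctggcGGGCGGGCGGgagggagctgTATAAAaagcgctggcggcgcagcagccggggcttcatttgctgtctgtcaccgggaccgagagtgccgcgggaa
Kit, chr5:75574737-75575036, plus strand: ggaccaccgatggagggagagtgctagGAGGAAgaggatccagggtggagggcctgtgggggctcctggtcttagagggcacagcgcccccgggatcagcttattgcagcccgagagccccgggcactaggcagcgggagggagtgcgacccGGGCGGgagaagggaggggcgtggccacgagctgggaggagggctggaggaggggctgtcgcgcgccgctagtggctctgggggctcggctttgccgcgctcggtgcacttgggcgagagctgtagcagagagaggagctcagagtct
Flt3, chr5:147400440-147400739, minus strand: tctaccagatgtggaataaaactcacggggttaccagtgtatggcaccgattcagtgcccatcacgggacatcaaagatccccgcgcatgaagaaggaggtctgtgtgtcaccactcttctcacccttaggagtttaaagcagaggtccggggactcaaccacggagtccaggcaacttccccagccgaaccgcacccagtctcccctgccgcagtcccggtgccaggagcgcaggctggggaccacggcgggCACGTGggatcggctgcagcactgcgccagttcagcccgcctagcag
Kitl alone among these 4 windows held the TATA box, which began at position -25 from the start, and it held 3 GC boxes, 2 of which overlap. Csf1 held 2 GC boxes, at -51 and -41. Kit held 1 PU.1 core and 1 GC box, and Flt3 held 1 E-box, from position 4 of the transcript. The Kit window is the first of 2 listed starts. Over all 32851 windows of this length in the table, 13.6% held the TATA box, 28.3% the PU.1 core, 35.7% the GC box and 7.15% the E-box. A match describes letters only and is no evidence of binding. In all, windows of 7 of the 9 genes were examined, and none of Csf1r or Csf3. Of those not shown, Csf3r held 1 PU.1 core, and Csf2 and Flt3l held 1 GC box each.

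In all, 6 of the 9 genes, 66.7%, were above the 95th percentile limit, against 60.5% of all genes. At the 99th percentile limit 4 of the 9, 44.4%, were above it, against 46.2% of all genes. Both shares lie near those of all genes, so the count is no result about the axes, and the detail lies in which genes passed. Ligand genes passed in 4 of 5 cases and receptor genes in 2 of 4. The median level of the 9 genes was 6.35, against 6.12 over all genes.

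Among the ligand genes, Kitl and Csf1 were far above both limits, though 1 of the silent tissue genes, Syn1, was too, with a mean of 8.06. Kitl had 8.21, 8.04 and 8.22 log2 units, lowest in replicate 2 and nearly equal in the others. Its mean was 8.16 ± 0.10 (SD, n = 3), or 2.62 log2 units above the mean 95th percentile limit. Csf1 had 8.28, 8.16 and 7.70 log2 units, with a mean of 8.05 ± 0.31 (SD, n = 3). The first 2 arrays lay close together and replicate 3 lay below them.

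Flt3l and Csf2 were nearer to the limits. Flt3l had 6.82 log2 units in each array, above both limits throughout. Csf2 had 6.48, 6.40 and 6.16 log2 units, a mean of 6.35 ± 0.16 (SD, n = 3). It passed the 95th percentile limit in all 3 arrays and the 99th percentile limit only in replicates 1 and 2. Csf3 had 5.28 log2 units in each array and passed neither limit.

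**Figure D1:**
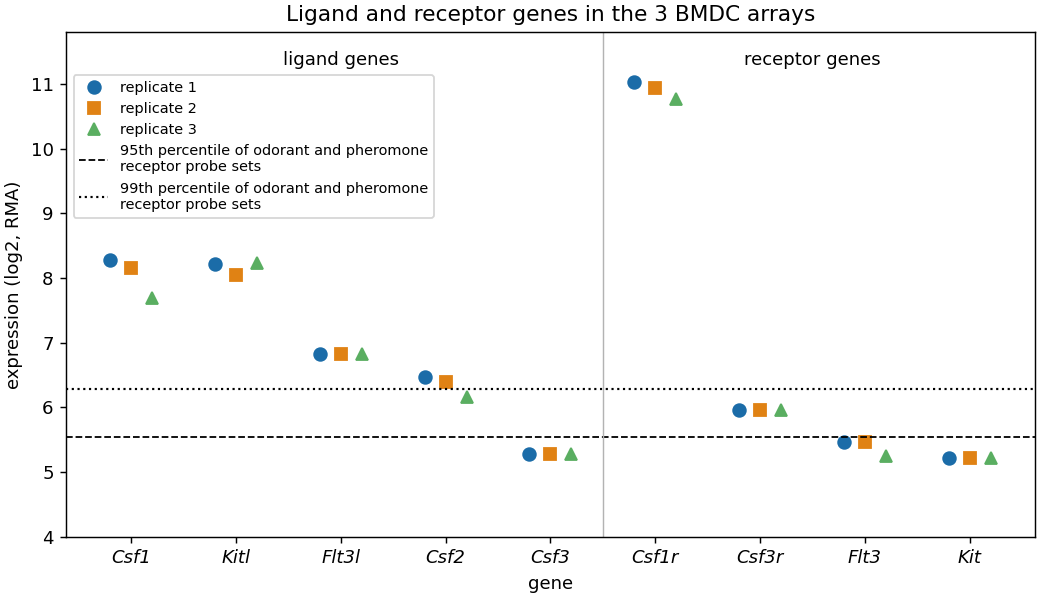
Expression in log2 units of the 5 ligand genes and the 4 receptor genes, with a point for each of the 3 arrays. The dashed and dotted lines are the mean 95th and 99th percentile limits, 5.54 and 6.28. Csf1, Kitl, Flt3l and Csf1r lie above both lines in every array, whereas Csf3, Flt3 and Kit lie below both.

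Among the receptor genes, Csf1r stood apart from the limits. Csf1r had 11.03, 10.94 and 10.77 log2 units, a mean of 10.91 ± 0.14 (SD, n = 3). That mean lay 5.37 log2 units above the mean 95th percentile limit. Replicate 3 was again lowest.

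Csf3r lay between the limits and the remaining receptor genes below them. Csf3r had 5.95 log2 units in each array, above the 95th and below the 99th percentile limit. Its call thus rests on the lower limit alone. Flt3 had 5.47, 5.47 and 5.24 log2 units, a mean of 5.39 ± 0.13 (SD, n = 3), just under the lower limit in replicates 1 and 2. Kit had 5.22 log2 units in each array, 0.32 below the mean limit. A level under the limit was not detectable on these arrays and does not show that a transcript was absent.

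Set out by axis, both sides were detected only for M-CSF among the 4 complete ligand and receptor pairs at the stricter limit, with Csf1 and Csf1r. At the lower limit too, the Flt3 and Kit axes had a detected ligand gene and an undetected receptor gene. The G-CSF axis was the other way round at the lower limit, with Csf3r above it and Csf3 below. For GM-CSF, Csf2 passed the lower limit beside its receptor genes. Csf2ra, the binding chain, had 10.70, 10.66 and 10.52 log2 units, and Csf2rb, the signalling chain, had a mean of 11.98 ± 0.04 (SD, n = 3). Csf2rb2, the mouse chain specific to IL-3, had 11.36, 11.39 and 11.37, and Il3ra had 8.17, 8.16 and 8.16. Il5ra, the binding chain for IL-5, had 2.92 in each array.

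The list of class III receptor relatives held 5 receptor and 3 ligand genes. Of the 5 receptor genes, 3 were above the 95th percentile limit and 1 above the 99th. Of the whole list, 6 of 8 and 4 of 8 were, against 60.5% and 46.2% of all genes (median level 6.99, against 6.12). Pdgfra, a PDGF receptor of mesenchymal cells, had 5.71, 5.59 and 5.59 log2 units, just over the lower limit. Pdgfrb had 5.55, 5.38 and 5.38 and did not pass it in all arrays. Of the related VEGF receptors, Flt1 had 9.56, 9.63 and 9.56, Flt4 had 5.91, 5.91 and 6.16, and Kdr lay below both limits at 5.16 in each array. The PDGF ligand genes Pdgfa (8.58, 8.53 and 8.53), Pdgfb (7.99, 8.04 and 7.96) and Pdgfc (9.50, 9.36 and 9.38) passed both limits.

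Other genes known to work with each axis were counted by the same limits. For these counts and those of the marker lists below, the shares of all genes were 60.5% and 46.2%. For M-CSF, 10 of 11 measured genes passed both limits (median level 9.52). Spi1 encodes PU.1, a factor needed for Csf1r transcription, and had 10.94, 10.98 and 10.98 log2 units. Tyrobp, an adaptor of myeloid receptors, had 11.95, 11.96 and 11.82. Il34, the other ligand of Csf1r, was the exception, with 5.45 in each array.

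For G-CSF, 7 of 9 genes passed both limits (median level 7.41). Cebpe, a factor of granulocyte maturation, had 7.56, 7.51 and 7.16 log2 units, and Stat3, which carries the Csf3r signal, had 9.54 in each array. Cxcr2, a chemokine receptor of neutrophils, had 6.17, 6.27 and 5.42 and so passed the lower limit only in replicates 1 and 2. Il17a, a cytokine known to induce G-CSF, lay below at 4.68.

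For Flt3, 10 of 12 genes passed the 95th and 9 the 99th percentile limit (median level 8.10). Irf8, Irf4 and Id2, transcription regulators of dendritic cells, had means of 10.18 ± 0.13, 9.65 ± 0.10 and 11.73 ± 0.02 (SD, n = 3). Meis1 and Hoxa9, regulators of early progenitors, lay below the limits at 5.26 and 5.14. Zbtb46, a factor of conventional dendritic cells, had 6.36 in each array, just over the stricter limit.

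For Kit, all 9 measured genes passed the 95th percentile limit and 7 the 99th (median level 8.23). Mitf, a factor of mast cells, osteoclasts and melanocytes, had 9.57, 9.57 and 9.54 log2 units, and Lmo2 had 8.74, 8.74 and 8.73. Gata2, a factor of progenitors and mast cells, had 6.99, 6.99 and 6.42, and Tal1 had 6.12 in each array. Many genes of these lists also serve other receptors, so their detection is not specific to an axis.

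The shared signalling genes and the feedback regulators were detected throughout at the lower limit. All 17 measured signalling genes passed both limits (median level 8.95), among them the adaptor gene Grb2 at 8.84 ± 0.04 (SD, n = 3). Shc1, another adaptor, had 8.36, 8.40 and 7.80, and Cblb, a ubiquitin ligase, had 10.48, 10.30 and 9.87. Of the 12 feedback regulators all passed the lower and 11 the stricter limit (median level 8.78). Socs2 and Cish, known targets of STAT5, had 10.21 ± 0.11 and 9.84 ± 0.04 (SD, n = 3). Sla, an adaptor that lowers receptor levels at the cell surface, had 10.81, 10.59 and 10.16 and was lowest in replicate 3.

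**Figure D2:**
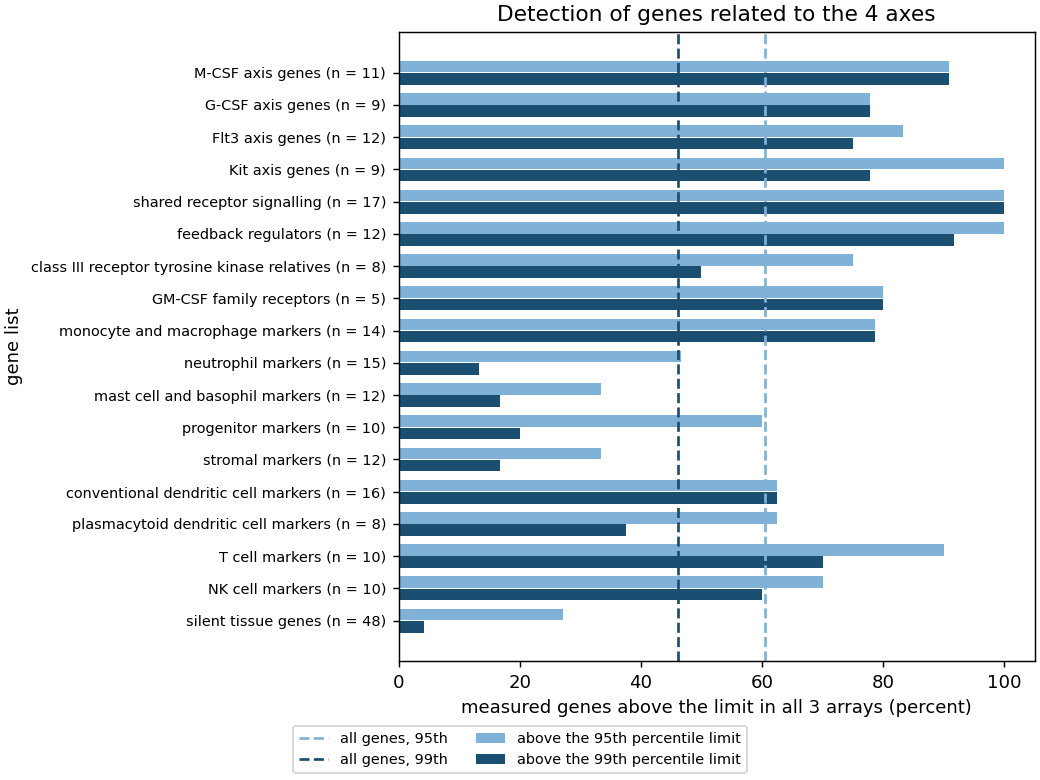
Percent of the measured genes of each list above the 95th (pale) and 99th (dark) percentile limit in all 3 arrays, with the number measured after each name. The dashed lines are the shares of all genes, 60.5% and 46.2%. The signalling list reaches 100% at both limits, whereas the neutrophil, mast cell and basophil, and stromal lists lie under both lines.

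Differences between the arrays stayed under 0.5 log2 units in all of the 9 genes but Csf1. Their median span was 0.18 log2 units, against 0 over all genes and 0.0096 over the genes above the lower limit. Csf3, Csf3r, Flt3l and Kit had the same deposited value in all 3 arrays, as did 57.1% of all genes. An SD of 0 is therefore no measure of precision. Flt3 had 1 lower value, in replicate 3, and Csf1, Csf1r, Csf2 and Kitl had 3 different values. Of the 9 genes, 1, Csf1, spanned more than 0.5 log2 units between its highest and lowest array, against 2.18% of all genes. Of the 9, 3 spanned more than 0.25 log2 units, namely Csf1, Csf2 and Csf1r, against 7.26% of all genes.

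Csf1 spanned 0.58 log2 units, which is wider than 98.1% of the genes above the lower limit. Csf2 spanned 0.31 log2 units and Csf1r 0.27 log2 units, wider than 94.0% and 92.2% of those genes. Flt3, itself not among those genes, spanned 0.23 and Kitl 0.18 log2 units, wider than 90.1% and 86.7% of them. Without replicate 3 no gene of the 9 spanned more than 0.5 log2 units, and the same was true without replicate 1. With 1 group there is nothing to test these spans against.

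Csf1, Csf1r and Csf2 were each highest in replicate 1 and lowest in replicate 3, with replicate 2 between. These are 3 of the 9 genes, against 6.88% of all genes. Among genes above the lower limit with 3 different values, 1233 of 3026 (40.7%) had that order. Kitl did not follow it, since its lowest array was replicate 2 and its highest replicate 3.

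Some other genes had an array pattern close to that of these 3 genes. Likeness was measured as the Euclidean distance between the deviations of 2 genes from their own means over the 3 arrays. For Csf1 the closest genes were Rnase6 (distance 0.013 log2 units), Cox6a2 (0.020) and Ppp1r16b (0.025). Of 12062 other genes above the lower limit, 101 (0.84%) lay within 0.1 of Csf1. For Csf1r the closest were Bcl2 (0.0032), Dcstamp (0.0044) and Kcnk6 (0.0057), with 722 genes (5.99%) within 0.1. For Csf2 they were Cct2 (0.0033), Rps9 (0.0037) and Ccnf (0.0040), with 490 (4.06%) within 0.1. With 3 arrays such closeness is a description only.

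**Figure D3:**
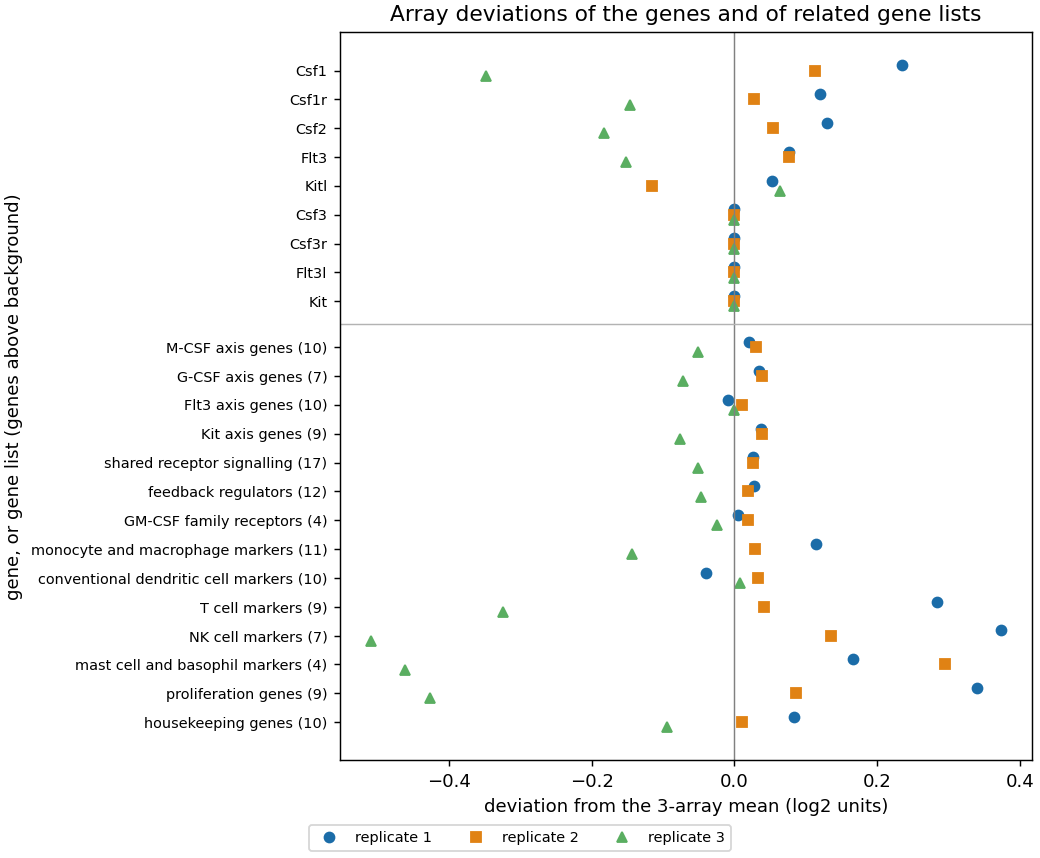
Log2 level in each array minus the mean of the arrays, for the 9 genes (top) and as the mean over the detected genes of related lists (bottom, number of genes in brackets). Csf1 reaches -0.35 in replicate 3, and the T cell, NK cell, mast cell and basophil, and proliferation lists deviate the same way there, from -0.32 to -0.51. The other lists shown are also below 0 there, by less, except conventional dendritic cell markers (0.007). Monocyte and macrophage markers, for example, lie at -0.14.

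Markers of other cells moved between the arrays beside these genes, and their part in the differences was not tested. T cell markers, 9 of 10 above the lower limit, had mean levels of 7.93, 7.68 and 7.33 log2 units. Of the 9, 7 were lowest in replicate 3. Cd4 had 6.62, 6.38 and 6.57, and Il7r, named after its values were seen, had 11.63, 11.71 and 11.79. NK cell markers, 7 of 10 above it, had 7.32, 7.15 and 6.70. The NK receptor genes Ncr1 (4.23), Klrd1 (4.89) and Klre1 (3.39) lay below it and were identical in the arrays, and most detected genes of that list, such as Gzma, Gzmb and Il2rb, are used by T cells as well. Activated T and NK cells are known sources of Csf2, and Csf2 was highest and lowest in the same arrays as both lists. Il2rb, a receptor chain of lymphocytes, spanned 1.38 log2 units, and Csf2 spanned 0.31.

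The mean levels of the proliferation genes and of the macrophage markers were also lowest in replicate 3. Proliferation genes, all 9 above the lower limit, had mean levels of 8.31, 8.05 and 7.54 log2 units, and 8 of the 9 were lowest there. Pcna was the exception, named after its values were seen, with 11.13, 11.13 and 11.27. Monocyte and macrophage markers, 11 of 14 above it, had 8.63, 8.56 and 8.43, and 6 of the 11 were lowest in replicate 3. Of these markers, C1qa, a complement gene of macrophages, had 10.73, 10.40 and 10.09 and Ccr2, a monocyte chemokine receptor gene, 7.35, 7.39 and 6.45, beside Csf1r at 11.03, 10.94 and 10.77. Mertk (10.58, 10.58 and 10.65) and Cd68 (12.22, 12.22 and 12.23) were highest in replicate 3. Housekeeping genes averaged 10.72, 10.65 and 10.55, and Tfrc, the transferrin receptor gene, spanned 1.58 log2 units. Without Tfrc, left out after its values were seen, the other 9 averaged 10.91, 10.90 and 10.89.

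Among the markers of mast cells, which are known for Kit, and of basophils, some differed between the arrays. Kit itself was under the limit and identical in the arrays, and these values do not show whether its transcript changed. Cpa3, a protease gene of mast cells and basophils, had 7.38, 7.54 and 5.38. Prss34, a basophil protease gene, had 7.75, 8.24 and 6.38, and Hdc, the enzyme gene of histamine synthesis, had 6.30, 6.33 and 5.73. Tpsb2, a mast cell tryptase gene, had 5.78 in each array. The whole list had 4 of 12 genes above the lower limit, 4 of 12 identical in the arrays, with mean levels of 5.55, 5.61 and 4.93. Its defining receptor genes Fcer1a (5.08, 5.01 and 4.02) and Ms4a2 (4.38, 4.43 and 4.02) lay below it in every array.

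Progenitor markers, the other cells known for Kit and Flt3, passed the lower limit in 6 of 10 cases and the stricter one in 2. Of all genes, 60.5% and 46.2% passed, so the lower count (60%) is no sign of these cells. Their mean levels were 6.07, 6.06 and 6.00 log2 units. Cd34, a surface marker of progenitors, had 6.66, 6.23 and 5.93 and Myb, a factor of immature blood cells, had 5.79, 5.79 and 5.66. The 2 that passed the stricter limit did not follow these. Procr, a surface marker of stem cells that other cells also carry, had 8.24, 8.59 and 8.86, and Slamf1, named after its values were seen, had 8.28, 8.42 and 8.28. Hlf (5.01) and Mecom (4.44), factors of stem cells, lay below the limits in each array.

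Neutrophil markers, of cells known for Csf3r, differed in part between the arrays. Ly6g, a surface marker of neutrophils, had 6.73, 6.80 and 4.86 log2 units, and Retnlg had 7.35, 7.11 and 5.55. Lcn2, with the widest span of the list, had 7.98, 6.69 and 5.12. S100a9, abundant in neutrophils, had 5.86 in each array, and Csf3r 5.95. The whole neutrophil list had 7 of 15 genes above the lower and 2 above the stricter limit, with mean levels of 6.17, 6.11 and 5.65. The 2 above the stricter limit, Mmp8 (9.16, 9.05 and 9.02) and Mmp9 (6.73, 6.73 and 6.57), differed less between the arrays. Of the 15, 4 spanned more than 0.5 log2 units.

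Marrow stroma is a known source of Kitl and Csf1, and its markers were unevenly detected. Dcn, Sparc, Lox and Bgn were highest in replicate 1, Dcn with 8.12, 5.36 and 5.41 log2 units and Lox with 7.58, 4.47 and 4.63. The collagen genes differed less. Col1a1 (6.94, 6.69 and 6.76) and Col1a2 (6.53, 6.36 and 6.36) passed both limits in every array, and Col3a1 had 6.10 in each. Beside them, Kitl had 8.21, 8.04 and 8.22 and Csf1 8.28, 8.16 and 7.70, and the part of stromal cells in these levels was not tested. The stromal list had 4 of 12 genes above the lower limit in all arrays and mean levels of 6.57, 5.53 and 5.57. Cxcl12 (5.02, 4.99 and 4.99) and Lepr (6.36, 5.73 and 5.43), named after their values were seen, were among the 8 that were not. Of the endothelial markers 5 of 8 passed the lower and 0 the stricter limit, against 60.5% and 46.2% of all genes.

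**Figure D4:**
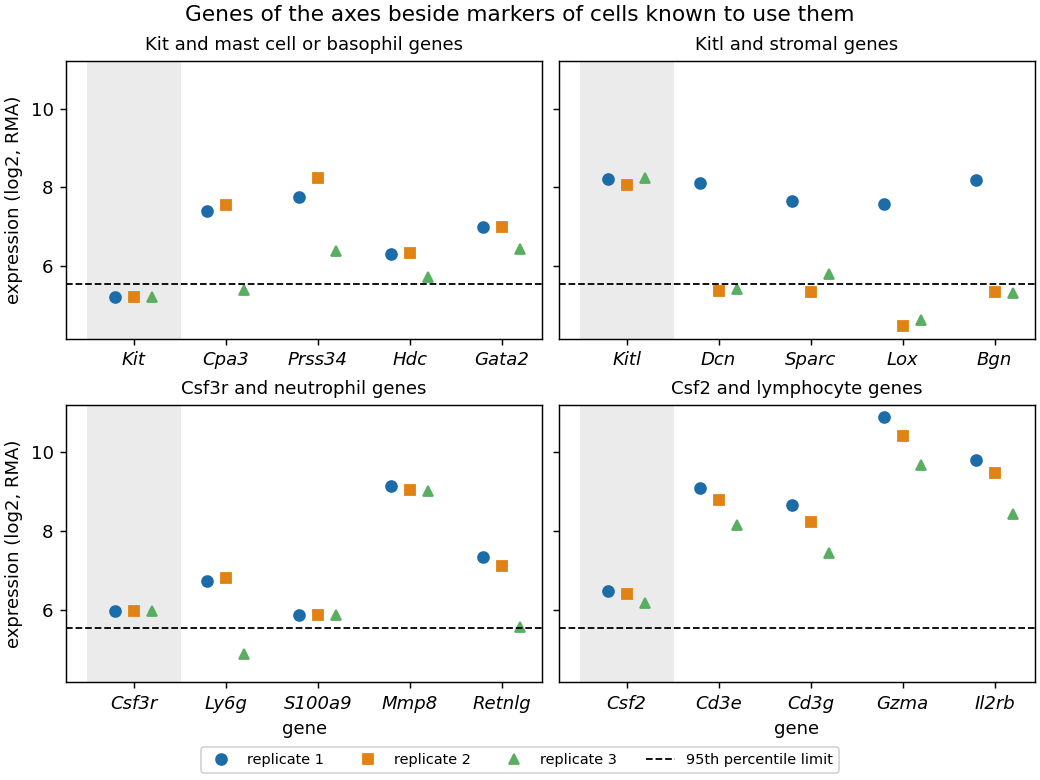
Expression in log2 units of Kit, Kitl, Csf3r and Csf2 (shaded) beside marker genes, most of them of cells known to use or make them. Each array has a point, and the dashed line is the mean 95th percentile limit. Kit (below the line) and Csf3r are identical in the arrays. Cpa3 and Ly6g span 2.16 and 1.93 log2 units and are lowest in replicate 3, Kitl lies between 8.04 and 8.22, and Dcn, Sparc, Lox and Bgn are highest in replicate 1.

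Plasmacytoid dendritic cells, which depend on Flt3, had 5 of 8 markers above the lower limit and 3 above the stricter one. The shares of all genes were 60.5% and 46.2%, so the lower count (62.5%) is no sign of these cells. Siglech, a surface marker of these cells, had 5.36 in each array and Ccr9 5.20, both below. Bst2 and Tcf4, which other cells use as well, had 8.50 in each array and 8.29 ± 0.04 (SD, n = 3). Cox6a2, the other marker above the stricter limit, had 7.56, 7.47 and 6.99.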

How the data were processed

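Total RNA (150 ng per sample) from 3 BMDC samples was measured on 1 biotin-labelled array each. Marrow was plated at 2000000 cells per well, per the labels' protocols. The authors deposited log2 expression values, for which the submitters' processing notes name RMA. As a method, RMA corrects background, quantile normalizes and summarizes probes by median polish, which can pull arrays together. Software, version and genome build are not given in the sources used here. The array medians were 5.91 each. The number of arrays limits precision.

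Of 35556 probe sets, 21789 name 1 gene, 1621 several and 12146 are not listed in the annotation. No probe set naming several genes named one of the 9. Identifiers of 21698 were matched to RefSeq (GRCm38.p6), which changed 0 symbols. Each gene took its probe set with the highest mean. No test was run, since there is 1 group. Alternatives changed the limit, the call, the probe set, the span, the scaling and the arrays used. The rules were run on simulated data (numpy 2.4.6, pandas 2.3.3). For the call, the simulated levels lay far from the limit, so the run says nothing about calls near it. For the span, noise was drawn separately for each array, whereas many genes here have identical values.

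The genes and the 22 lists were chosen with earlier results of these data known. The rule for genes that could be named took the 9, and from each list the first 4 measured, up to 4 whose call goes against most of their list and up to 3 with the widest span. Not all of these are named, and the choice among them was made with their values known. The receptor relatives are named in full. For genes of the 9 spanning over 0.25 log2 units, the closest 3 genes by array pattern are named.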

Additional observations from a re-analysis of the deposited data

How the results depend on the processing

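The count of detected genes was 6 of 9 with the 95th percentile limit, with a call on the mean, with a call in at least 1 array, with either other choice of probe set, and without any 1 replicate. It was 4 with the 99th percentile limit and 4 with the 95th percentile of the silent tissue genes. Csf2 and Csf3r were lost there by construction of the higher limits. The count of genes spanning more than 0.5 log2 units was 1. It was 3 with a span over 0.25 and 0 with a span over 1 log2 unit. Leaving out 1 replicate gave 0 to 1, with 0 without replicate 1 and without replicate 3. Each gene has 1 probe set, so the probe set choice cannot change a value, and subtracting the array medians cannot change a mean. Leaving out 1 array moved a level by at most 0.17 log2 units, which with 3 arrays is under 1 SD by construction and says nothing about stability. No paired analysis was possible because there is only 1 group. Signal near background limits Csf2, Csf3, Csf3r, Flt3 and Kit.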
